A study of Mus musculus with 37 samples.

Results

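The colon of unchallenged Timp1 knockout mice was compared with that of unchallenged wild-type mice in the control arm of a chronic colitis experiment. Arrays were chosen by their titles, which name genotype, phase and treatment, and 10 of the 37 arrays of the series met the rule, 5 knockout and 5 wild-type chronic controls. The knockouts were B6.129S4-Timp1tm1Pds/J mice, which carry a targeted Timp1 allele, and the wild types were C57BL/6J mice. Both groups are labelled as controls of the arms given dextran sodium sulphate (DSS), an oral polysaccharide that damages the colon. The labels give no age, sex, housing or littermate status. RNA from snap frozen colon went onto Mouse Gene 1.0 ST arrays (Affymetrix), each array was taken as a separate mouse, and all values are log2 signals of 19938 genes. The first part of each title was read as an animal number, which the labels do not state. These numbers begin with 14 in all 5 knockouts and in wild-type replicates 4 and 5, and with 11 in wild-type replicates 1 to 3. The comparison was therefore repeated with the 2 wild types of the knockouts' own number series.

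TIMP1 is a secreted glycoprotein that blocks the active site of matrix metalloproteinases, the enzymes that cut collagen and other matrix proteins. It also acts on cells through surface receptors, independently of protease inhibition. In the gut it is made mainly by stromal cells and macrophages and is known as a gene that is switched on by injury and inflammation, so a colon without DSS is a setting in which little of it is normally made. A strain that was backcrossed after gene targeting in cells of another strain keeps that strain's sequence around the targeted gene and can keep it elsewhere.

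The arrays of both groups were alike in level, with medians between 7.69 and 7.72 over all transcript clusters, and the 10 arrays lacked Y-linked signal. Knockout replicate 2 stood apart from its group. On the first principal component of the 10 arrays, which held 40.9% of the variance, the other 4 knockout arrays scored 14.6 to 19.9, whereas knockout replicate 2 scored -9.7. The wild-type arrays scored -18.3 to -15.9 in replicates 1 to 3 and -4.7 and -1.6 in replicates 5 and 4. Knockout replicate 2 was also the array that most often lay far from the rest of its group, in 529 genes (2.65%). Results are therefore given with all arrays and without this one. Because the array was left out after its position had been seen, adjusted p values without it are a description only.

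With all 10 arrays, 20 of 19938 genes (0.1%) passed at an adjusted p under 0.05 in a limma fit, 14 higher (0.0702%) and 6 lower (0.0301%) in the knockout. The differences ran from 0.38 to 2.77 log2 units in size, and 9 of the 20 were at least 2-fold. The median difference of all genes was 0.01. An unadjusted p under 0.05 was found for 1886 genes (9.46%). The 2 groups did not overlap in 11 of the 20, and in 491 of all genes (2.46%). Without knockout replicate 2, 280 genes passed (1.4%), 165 higher (0.828%) and 115 lower (0.577%), and all 20 were among them. When each of the 10 arrays was left out in turn, 4 of the 20 passed every time: Wdfy1, Plcd3, Camk2b and Xpnpep2. The other 16 all lost their call without knockout replicate 1 and without wild-type replicate 2, and most of them also without several other arrays. Within the animals whose numbers begin with 14, 5 knockouts against 2 wild types, 4 genes passed (0.0201%). These were Wdfy1, Plcd3 and Chchd10, which were higher (0.015%), and Vpreb3, which was lower (0.00502%). Within that series and without knockout replicate 2, 11 genes passed (0.0552%), 8 higher (0.0401%) and 3 lower (0.015%). With 5 knockouts against the 2 wild types of that series, all 20 genes kept the sign of their difference. Every array of that comparison had also served to choose the 20 genes, so the shared sign is no separate check.

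Timp1 itself did not separate the genotypes at this baseline. Its log2 signal was 7.03, 6.84, 6.95, 7.46 and 7.43 in the knockout arrays and 7.28, 7.09, 7.07, 6.99 and 7.21 in the wild-type arrays. The groups overlapped, and knockout replicates 4 and 5 held the highest values. The difference was 0.01 ± 0.34 (SE, n = 5 and 5, adjusted p = 0.996). This SE rests on the gene's variance over all 8 groups, those on DSS included. In limma with only the 10 chronic control arrays the SE was 0.12 (adjusted p = 0.965). The exact two-sided permutation test gave p = 0.921, with 0.00794 the smallest p it allows. The sign of the difference turned when single arrays were left out (-0.07 to 0.09). The same transcript cluster reached 9.47 to 12.19 in wild-type mice on acute DSS and 7.10 to 8.68 in knockout mice on acute DSS. In acute controls it lay at 6.94 to 7.12 in knockout and 7.56 to 7.76 in wild type, without overlap (-0.62 ± 0.44, adjusted p = 0.608). In chronic DSS it differed by -1.38 (adjusted p = 0.0255). Whether its probes lie in the targeted part of the gene is not stated in the labels. Equal low signals in the chronic controls therefore do not check the genotype.

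None of the other 4 measured metalloproteinase inhibitors passed with all arrays, and 1 of the 5 members of the list, Timp4, had an unadjusted p under 0.05. Timp4, the family member with the narrowest tissue range, had 7.97, 8.78, 7.90, 7.74 and 7.47 in knockout and 8.54, 8.93, 9.08, 8.36 and 8.69 in wild type. Only knockout replicate 2 lay inside the wild-type range. Its difference was -0.75 ± 0.25 (adjusted p = 0.282), and without that array it fell by 0.95 ± 0.25 (adjusted p = 0.0442). The more widely made inhibitors Timp2 and Timp3 differed by -0.22 ± 0.15 and -0.25 ± 0.24 (adjusted p = 0.703 and 0.809). Reck, a membrane-anchored inhibitor, differed by -0.06 ± 0.16 (adjusted p = 0.954). With only the 10 chronic control arrays the SEs of Timp2, Timp3 and Reck were 0.07, 0.10 and 0.08. None of the 3 passed limma's test there (adjusted p = 0.17, 0.23 and 0.741). Of the 26 measured metalloproteinases and ADAM proteases 0 passed with limma, 1 had an unadjusted p under 0.05, 1 passed without knockout replicate 2, and their median difference was 0.01.

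The 20 measured genes nearest to Timp1 on the X chromosome, 10 on each side, were examined as the surroundings of the targeted gene. In chronic controls none passed with limma, where 0.1% of all genes passed. An unadjusted p under 0.05 was found for 3 of the 20, against 9.46% of all genes. Their differences ran from -0.35 to 0.17. In acute DSS 9 of the 20 passed, where 30.9% of all genes passed. Syn1, a synaptic vesicle protein gene whose span contains Timp1, had 7.20, 7.08, 7.19, 7.19 and 7.29 in knockout and 7.42, 7.69, 7.53, 7.56 and 7.50 in wild type. These ranges did not overlap. Its difference was -0.35 ± 0.08 (adjusted p = 0.064), and -0.32 (adjusted p = 0.0469) without knockout replicate 2. The difference in Syn1 was -0.30 in acute controls, -0.88 in acute DSS and -0.23 in chronic DSS. Cfp, which encodes the complement regulator properdin and lies on the other side of Timp1, also had non-overlapping ranges, 8.59 to 8.87 against 8.97 to 9.02. It differed by -0.28 ± 0.25 (adjusted p = 0.792), with an SE that rests on its variance over all groups, those on DSS included.

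A group of 3 genes was higher in the knockout here and in each of the other 3 settings, acute controls, acute DSS and chronic DSS. Each setting has its own knockout and wild-type mice. In acute controls and chronic DSS, however, the form or first digits of the animal numbers differ between all knockouts and all wild types, so genotype and number series cannot be told apart there. In acute controls, acute DSS and chronic DSS, 223 (1.12%), 6170 (30.9%) and 495 (2.48%) of all genes passed. Y-linked signal was found in 1 knockout array of the acute controls and 1 of acute DSS, and in no wild-type array.

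Wdfy1, which encodes an endosomal protein with a lipid-binding FYVE domain, had 9.09, 9.03, 9.40, 9.35 and 9.29 in knockout and 8.24, 8.11, 8.42, 8.45 and 8.34 in wild type. Every knockout array lay above every wild-type array. The difference was 0.92 ± 0.09 (1.89-fold, adjusted p = 2.3e-07), and 0.84 ± 0.12 (adjusted p = 0.00122) against the 2 wild types of the same number series. In acute controls, acute DSS and chronic DSS it was 0.93, 0.64 and 0.76. Wdfy1 was also the only one of 20 measured genes on a list of genes known to differ between mouse strains and substrains that passed with all arrays. The list's median difference was 0.00. At an unadjusted p under 0.05 in limma 4 of its members were higher and 1 lower, against 9.46% of all genes. Without knockout replicate 2, 2 members passed, against 1.4% of all genes. In acute controls 2 members passed, against 1.12% of all genes.

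Xpnpep2, like Timp1 a gene of the X chromosome, encodes a membrane-bound aminopeptidase that removes the first residue of peptides before proline. Its signal was 9.27, 9.21, 9.18, 9.04 and 9.17 in knockout and 7.62, 7.66, 7.63, 7.54 and 7.42 in wild type. The gap between the groups was far wider than the spread within either (SD 0.09 and 0.10). The difference was 1.60 ± 0.25 (3.03-fold, adjusted p = 0.00149). It was 2.23 in acute controls, 2.77 in acute DSS and 2.07 in chronic DSS. Within the number series that begins with 14 it was 1.69 ± 0.33, with an adjusted p of 0.0655.

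Camk2b, the beta subunit of calcium/calmodulin-dependent protein kinase II, had 9.36, 9.28, 9.35, 9.31 and 9.37 in knockout and 8.79, 8.79, 8.73, 8.76 and 8.77 in wild type. These were the tightest groups of the 3 genes, with SDs of 0.04 and 0.03. The difference was 0.57 ± 0.09 (1.48-fold, adjusted p = 0.00127), and 0.64, 0.68 and 0.55 in acute controls, acute DSS and chronic DSS. Within the number series that begins with 14 it was 0.57 ± 0.12, with an adjusted p of 0.0828.

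Of the 3 genes that passed in every setting, the promoters of Xpnpep2 and Camk2b are shown, and that of Wdfy1 was not analysed here. Each window runs from 250 bases before to 50 bases after the start of the gene (RefSeq, GRCm38.p6), at chrX:48108475-48108774 on the plus strand and chr11:6065699-6065998 on the minus strand. Capitals mark matches to 3 motifs that were searched on both strands. These were the letters TATAAA of the classical promoter element, the letters GGGCGG that Sp1-type factors bind and the letters CCAAT that NF-Y-type factors bind, and no match of one overlapped a match of another.
Xpnpep2 promoter: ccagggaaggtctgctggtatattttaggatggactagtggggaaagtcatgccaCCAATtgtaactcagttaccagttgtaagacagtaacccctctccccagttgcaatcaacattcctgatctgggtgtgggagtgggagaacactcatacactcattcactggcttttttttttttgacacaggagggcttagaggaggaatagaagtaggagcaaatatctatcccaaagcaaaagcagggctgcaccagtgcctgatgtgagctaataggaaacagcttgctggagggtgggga
Camk2b promoter: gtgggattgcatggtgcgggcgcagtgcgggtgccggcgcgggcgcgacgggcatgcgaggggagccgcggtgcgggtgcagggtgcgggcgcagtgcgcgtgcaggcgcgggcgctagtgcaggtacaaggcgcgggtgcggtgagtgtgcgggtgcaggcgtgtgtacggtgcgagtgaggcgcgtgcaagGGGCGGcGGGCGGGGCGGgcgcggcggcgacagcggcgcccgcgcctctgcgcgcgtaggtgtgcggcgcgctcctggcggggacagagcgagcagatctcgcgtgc
The Xpnpep2 window held 1 match to CCAAT, no CG pair and a GC content of 47.3%. The Camk2b window held 3 matches to GGGCGG, of which the last 2 share a base, 51 CG pairs and a GC content of 77.3%. Over the 32851 promoters of the table, 37.4% held CCAAT, 35.7% held GGGCGG and 13.6% held TATAAA, and the medians were 7 CG pairs and a GC content of 52.7%. The windows of these 2 genes thus lay on either side of the median in base composition.

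AI506816, a transcript without an established function, came close to the same pattern. It had 10.91, 11.46, 11.56, 11.68 and 11.22 in knockout and 10.02, 10.13, 10.22, 10.88 and 10.55 in wild type, without overlap. The difference of 1.01 ± 0.21 (adjusted p = 0.0408) was 1.22 in acute controls (adjusted p = 0.0195), 1.17 in chronic DSS (adjusted p = 0.00336) and 0.50 in acute DSS (adjusted p = 0.0602). Within the number series that begins with 14 it was 0.66 ± 0.27 (adjusted p = 0.835).

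Plcd3, a phospholipase C that cleaves membrane phosphoinositides, was higher in chronic controls with every array left out in turn. Its signal was 9.40, 9.47, 9.41, 9.77 and 9.50 in knockout and 8.66, 8.69, 8.97, 8.82 and 8.76 in wild type. The groups did not overlap, and the difference was 0.73 ± 0.10 (1.66-fold, adjusted p = 0.000207) and 0.72 ± 0.13 (adjusted p = 0.0323) within the number series that begins with 14. In the other settings it was 0.44 in acute controls, 0.20 in acute DSS and 0.17 in chronic DSS, and none of these passed (adjusted p = 0.0801, 0.11 and 0.406).

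**Figure D1:**
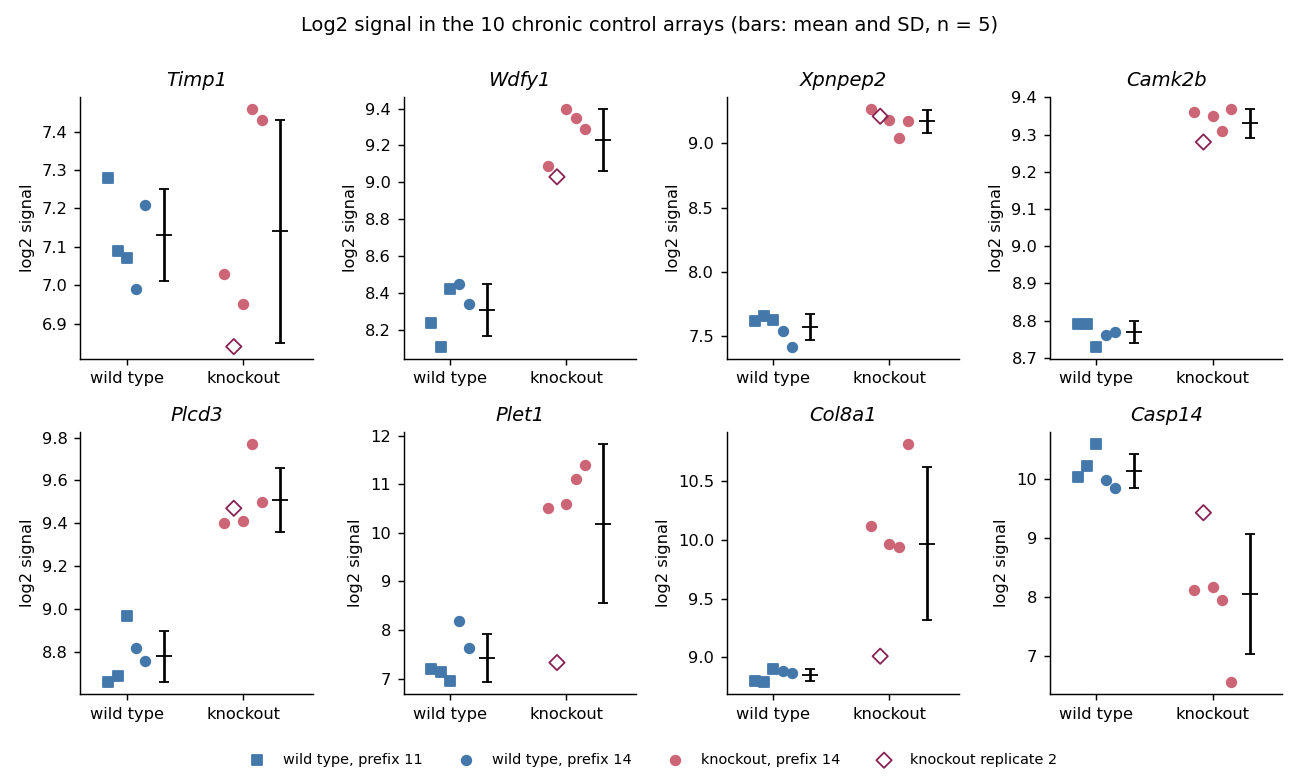
Log2 signal (vertical axes, each with its own range) of 8 genes in the 10 chronic control arrays, 5 per genotype, with squares and circles for animal numbers that begin with 11 and 14 and an open diamond for knockout replicate 2; bars are mean and SD. Knockout replicate 2 lies with the other knockouts in Wdfy1, Xpnpep2, Camk2b and Plcd3 and apart from them in Plet1, Col8a1 and Casp14, while Timp1 overlaps between genotypes.

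Across all 20 genes, 18 had the same sign in acute controls, 13 in acute DSS and 10 in chronic DSS, against 60.1%, 52.2% and 46.8% of all genes. Besides the 3 genes above and AI506816, only Plet1 passed in another setting, in acute controls. The other genes that passed in chronic controls did not pass in any of the other 3 settings, and none of the 20 passed the direct test of a difference between chronic and acute controls.

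**Figure D2:**
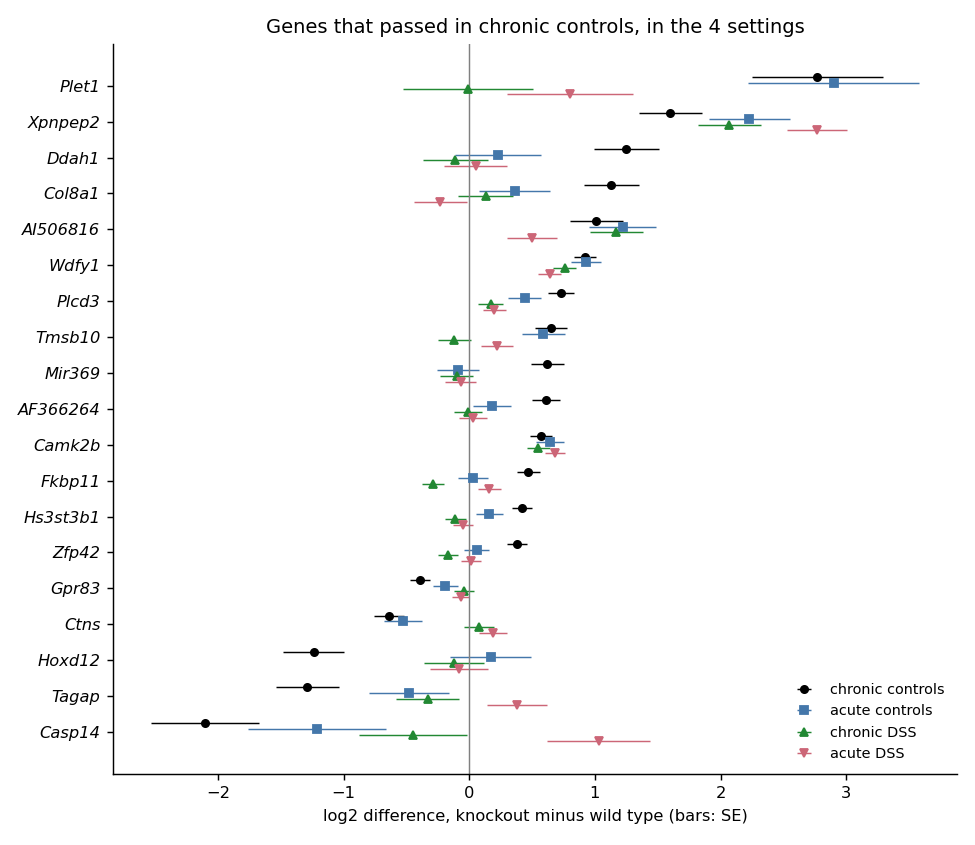
Log2 difference between knockout and wild type (horizontal axis, bars are SE) for the 19 named genes that passed in chronic controls, in chronic controls (n = 5 and 5), acute controls (n = 3 and 3), chronic DSS (n = 5 and 5) and acute DSS (n = 6 and 5). The 4 symbols of Wdfy1, Xpnpep2 and Camk2b lie on the same side of 0, whereas Col8a1 lies at 1.13 in chronic controls and between -0.23 and 0.36 in the other settings.

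In a further group knockout replicate 2 was the knockout array nearest to wild type, inside the wild-type range in some genes and outside it in others. Plet1, a surface protein of epithelial progenitors, had 10.51, 7.33, 10.60, 11.10 and 11.40 in knockout and 7.19, 7.14, 6.95, 8.18 and 7.62 in wild type. It had the largest difference of all genes that passed, 2.77 ± 0.52 (6.82-fold, adjusted p = 0.0211), which was 3.48 ± 0.41 (adjusted p = 1.16e-05) without knockout replicate 2. Within the number series that begins with 14 it was 2.28 (adjusted p = 0.797), and the adjusted p was 0.0327 there without that array. In acute controls Plet1 was 2.90 ± 0.68 higher in knockout (adjusted p = 0.0262). In chronic DSS both genotypes were at a high level, 11.88 to 12.73 in knockout and 11.44 to 12.64 in wild type, and the difference was -0.01.

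Casp14, a caspase of cornifying epithelium, had 8.12, 9.43, 8.17, 7.94 and 6.55 in knockout and 10.03, 10.23, 10.60, 9.98 and 9.85 in wild type. No knockout array reached the wild-type range, and knockout replicate 2 came nearest. It fell by 2.10 ± 0.43 (adjusted p = 0.0321). Within the number series that begins with 14 the difference was -1.87 ± 0.57 (adjusted p = 0.797). The squamous epithelium list, which holds other genes of cornifying epithelium, had a median difference of -0.04, with 0 of 17 members passing limma's test and 0 at an unadjusted p under 0.05.

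Col8a1, a chain of the short-chain collagen VIII, had 10.12, 9.01, 9.97, 9.94 and 10.82 in knockout and 8.80, 8.79, 8.90, 8.88 and 8.87 in wild type. The wild-type arrays were within 0.11 units of each other, and every knockout array lay above them, replicate 2 by the least. The difference was 1.13 ± 0.22 (2.18-fold, adjusted p = 0.0236). Col8a1 was the only 1 of 33 measured collagens and matrix genes that passed, while 25 members had a negative difference and the list's median was -0.07. That median was 0.05 within the number series that begins with 14 and -0.19 between the 2 sets of wild types.

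Tagap, a GTPase-activating protein of activated T cells, fell by 1.29 ± 0.25 (adjusted p = 0.0236), and Ctns, the lysosomal cystine transporter, by 0.64 ± 0.12 (adjusted p = 0.0199). Fkbp11, a prolyl isomerase of the secretory pathway, rose by 0.47 ± 0.09 (adjusted p = 0.0277). In all 3, knockout replicate 2 was the knockout array nearest to wild type, at 8.78 against 7.56 to 7.78 in Tagap, 9.77 against 9.12 to 9.21 in Ctns and 7.14 against 7.50 to 7.56 in Fkbp11. Within the number series that begins with 14 none of the 3 passed (adjusted p = 0.797 each). The differences there were -0.89 in Tagap, -0.48 in Ctns and 0.37 in Fkbp11. The steps between the 2 sets of wild types were -0.66, -0.26 and 0.18. The 31 measured T cell and cytotoxic lymphocyte genes had a median difference of 0.07, with 0 members that passed limma's test and 0 at an unadjusted p under 0.05.

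The 4 next genes on the lower side missed the threshold with all arrays and passed without knockout replicate 2. St8sia5, a sialyltransferase of gangliosides, had 7.05, 9.63, 7.15, 6.83 and 6.43 in knockout and 9.09 to 9.87 in wild type. Its difference was -1.96 ± 0.42 (adjusted p = 0.052), and -2.52 ± 0.35 (adjusted p = 0.000128) without the second knockout array. Fxyd4, a regulator of the sodium pump in ion-absorbing epithelium, had 9.84 in knockout replicate 2 and 7.28 to 8.00 in the others, against 8.96 to 9.93 in wild type, with -1.43 ± 0.32 over all arrays (adjusted p = 0.0559). Hacd3, an enzyme of very long chain fatty acid synthesis, differed by -0.62 ± 0.14 (adjusted p = 0.0539), and Hes1, a Notch-induced repressor, by -0.44 ± 0.10 (adjusted p = 0.0559).

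The 280 genes found without knockout replicate 2 were chosen on the other 4 knockouts, after that array had been seen to lie with the wild types, so the counts that follow restate this position gene by gene and are a description. In 254 of them it lay nearer to the wild-type mean than to the mean of the other knockouts, and in 218 it lay within the wild-type range. The median size of the difference was 0.52 log2 units for the 4 other knockout arrays, and 0.03 for knockout replicate 2 in the same direction. Besides Plet1 the largest differences of this set, named after their values were seen, were in B3gnt6, Sptssb, Ccn3 and Isx. B3gnt6, the synthase of core 3 mucin-type glycans, had 10.26, 7.09, 10.33, 10.41 and 11.31 in knockout and 7.02 to 7.54 in wild type (3.37 ± 0.65, adjusted p = 0.00552). Sptssb, a subunit of serine palmitoyltransferase, had 5.47 in knockout replicate 2 and 8.00 to 9.40 in the other knockouts, against 5.32 to 6.80 in wild type. Ccn3, a secreted matricellular protein, had 10.45 and 12.13 to 13.03, against 8.84 to 11.65, and differed by 2.69 between the 2 sets of wild types. Isx, an intestine-specific homeobox factor that restrains carotenoid uptake, had 7.34 and 9.30 to 10.61, against 6.65 to 7.99.

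Some of the genes that passed followed the animal number series within wild type. Between the 2 wild types whose numbers begin with 14 and the 3 whose numbers begin with 11, 19 genes passed (0.0953%) and 928 had an unadjusted p under 0.05 (4.65%). Of the 19, Hoxd12 and Ddah1 were also among the 20. Hoxd12, a homeobox gene of the posterior body, had 7.10, 7.29, 7.37, 7.05 and 6.85 in knockout, 8.87, 9.09 and 9.26 in the first 3 wild types and 7.38 and 7.24 in the other 2. Wild-type replicate 5 lay among the knockouts and replicate 4 just above the highest of them. Its difference of -1.24 ± 0.24 (adjusted p = 0.0277) was -0.18 ± 0.15 within the number series that begins with 14 (adjusted p = 1), and the step between the wild types was -1.77 (adjusted p = 1.06e-07). In the other 3 settings all arrays of both genotypes lay between 6.43 and 7.36, so the 3 wild types at 8.87 to 9.26 stood above every other group of the series.

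The neighbouring Hoxd genes, added after their values were seen, had the same step. Hoxd10 and Hoxd11 were 10.26 to 10.37 and 10.09 to 10.27 in wild-type replicates 1 to 3, and 8.14 and 8.27, and 7.87 and 8.11, in replicates 4 and 5. Hoxd13 had 11.37, 11.42 and 11.48 against 8.81 and 9.13, and 8.35, 10.27, 8.79, 8.65 and 8.39 in knockout. Knockout replicate 2 was thus the highest knockout array in Hoxd10 (8.79), Hoxd11 (8.72) and Hoxd13, although not in Hoxd12. Over all arrays these 3 genes differed between genotypes by -1.45, -1.23 and -1.55 (adjusted p = 0.144, 0.164 and 0.24). Hoxd genes mark position along the hindgut, with their highest levels towards the anus, and whether the piece of colon sampled had a part in these values was not tested.

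Ddah1, which degrades the methylarginines that inhibit nitric oxide synthases, had 10.44, 9.78, 10.75, 10.76 and 10.83 in knockout, 8.43, 8.62 and 8.87 in wild-type replicates 1 to 3 and 10.17 and 10.19 in replicates 4 and 5. The difference of 1.25 ± 0.26 (adjusted p = 0.041) was 0.33 ± 0.25 within the number series that begins with 14 (adjusted p = 0.997). Slc9a3, the apical sodium-proton exchanger NHE3, had the largest difference on the colonocyte transport list and a like pattern. It was at 8.39, 9.15 and 9.37 in the first 3 wild types, at 12.07 and 11.35 in the other 2 and at 11.01 to 12.07 in knockout, with 1.64 ± 0.64 over all arrays (adjusted p = 0.391) and -0.01 within the number series.

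Chchd10 and Vpreb3 behaved the opposite way, since the 2 wild types of the knockouts' own number series stood alone. Chchd10, a mitochondrial intermembrane space protein, had 8.77 and 8.83 there, 11.10 to 11.17 in the other 3 wild types and 11.11 to 11.21 in knockout. Vpreb3, a protein of developing B cells, had 9.03 in both, 6.76 to 7.00 in the other wild types and 6.82 to 7.27 in knockout. The differences within the number series were 2.37 ± 0.38 (adjusted p = 0.0072) and -1.94 ± 0.33 (adjusted p = 0.0102), against 0.96 ± 0.40 and -0.66 ± 0.36 over all arrays (adjusted p = 0.427 and 0.589). The pair lies on chromosome 10, with 1 annotated gene between them. Low Chchd10 also occurred among wild-type mice on acute DSS, which ranged from 7.75 to 10.59, and in none of the knockout groups, whose lowest value was 10.39.

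**Figure D3:**
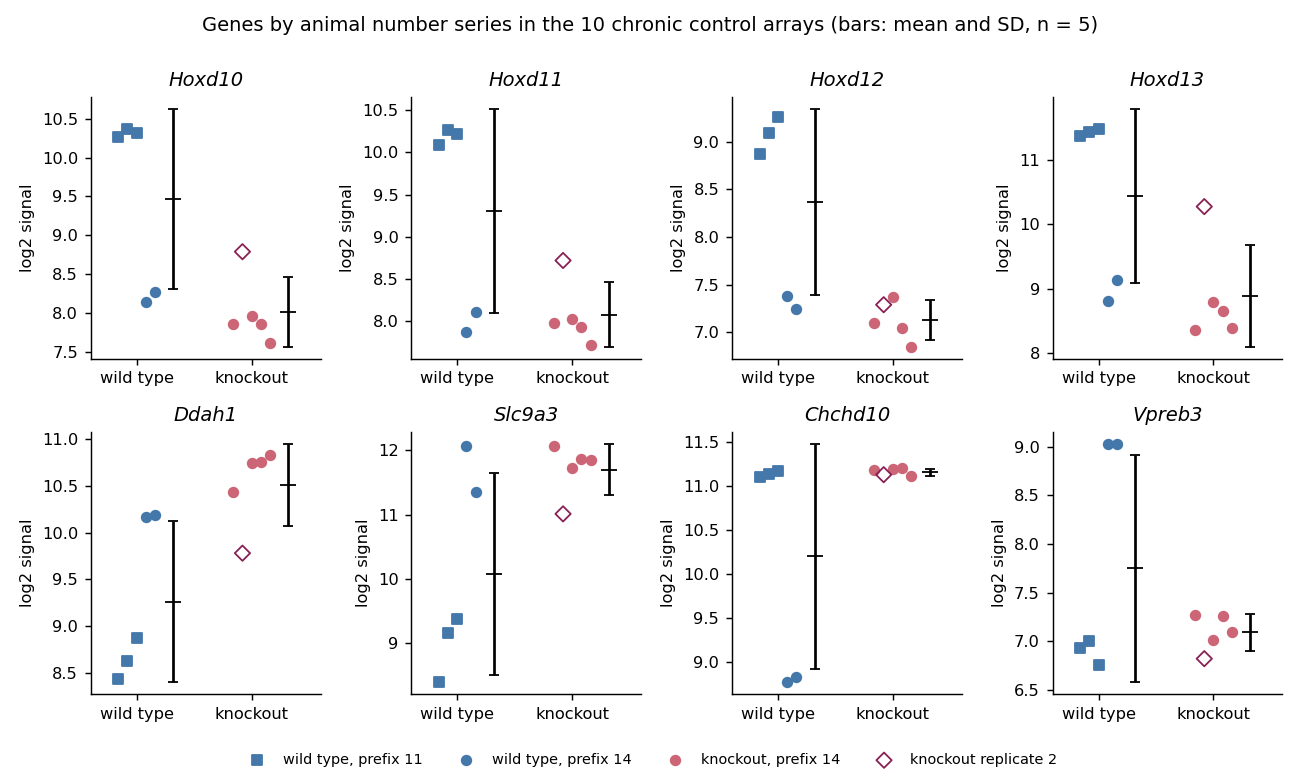
Log2 signal (vertical axes, each with its own range) of 8 genes in the 10 chronic control arrays, with squares for wild types whose animal numbers begin with 11 (n = 3), circles for those that begin with 14 (n = 2 wild type, n = 4 knockout) and an open diamond for knockout replicate 2; bars are mean and SD of 5 arrays. Wild-type replicates 4 and 5 lie with the knockouts in the Hoxd genes, Ddah1 and Slc9a3 and away from all other arrays in Chchd10 and Vpreb3.

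The other named genes that passed had differences of 0.65 or less in size. Tmsb10, which binds actin monomers, rose by 0.65 ± 0.13 (adjusted p = 0.0321), Hs3st3b1, a heparan sulphate sulphotransferase, by 0.42 ± 0.08 (adjusted p = 0.0296), and Zfp42, a zinc finger protein of pluripotent cells, by 0.38 ± 0.08 (adjusted p = 0.0408). AF366264 rose by 0.61 ± 0.11 (adjusted p = 0.0199) at a low signal, 5.85 to 6.49 against 5.18 to 5.81. Within the number series that begins with 14 the difference was 0.37 ± 0.14 in AF366264 (adjusted p = 0.813) and 0.27 ± 0.11 in Hs3st3b1 (adjusted p = 0.833), against steps of 0.41 and 0.26 between the 2 sets of wild types. Gpr83, a G protein-coupled receptor, fell by 0.39 ± 0.08 (adjusted p = 0.0273). The twentieth gene, a transcript without an established symbol, had the third largest difference of all and fell by 1.86 ± 0.33 (adjusted p = 0.0144), with -1.21 within that number series (adjusted p = 0.797). Each of these calls was lost when any of several single arrays was left out.

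The 1 microRNA gene among the 20 was Mir369, which belongs to the imprinted domain between Dlk1 and Dio3. In this domain protein genes are read from the paternal chromosome, and Meg3, Rian and a long series of microRNAs and small nucleolar RNAs from the maternal one. Arrays of this kind do not tell a mature microRNA from its precursor transcript. Mir369 had 5.40, 4.75, 5.27, 5.74 and 6.03 in knockout and 4.85, 4.74, 4.80, 4.77 and 4.94 in wild type, near the low end of the array's range. Knockout replicate 2 lay among the wild types, and the other 4 lay above them. The difference was 0.62 ± 0.13 (1.53-fold, adjusted p = 0.0382), and 0.79 ± 0.10 (adjusted p = 5.32e-05) without that array.

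The rest of the domain was examined after this value was seen, and its counts are a description. Of the 103 genes that the gene table places from Dlk1 to Dio3, 48 were measured, and 46 of these had a positive difference, against 52.9% of all genes. Their median difference was 0.21 over all arrays and 0.26 without knockout replicate 2, and 1 and 13 of the 48 passed. Meg3, the long non-coding RNA of the domain, had 10.08, 8.55, 9.57, 9.74 and 10.18 in knockout and 8.40 to 9.02 in wild type, and differed by 0.93 ± 0.26 (adjusted p = 0.173). Dlk1, a membrane protein related to Notch ligands, had 9.65, 8.34, 9.02, 9.40 and 9.60 against 8.42 to 8.70, and differed by 0.63 ± 0.22 (adjusted p = 0.318). Rian differed by 0.51 ± 0.16 (adjusted p = 0.225), and all 3 passed without knockout replicate 2 (1.20, 0.84 and 0.64, adjusted p = 0.00967, 0.0302 and 0.0272). Dio3, a deiodinase at the far end of the domain, differed by -0.06.

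Of the 40 measured microRNA genes of the domain, 39 had a positive difference, with a median of 0.21, against 194 of the 251 microRNA genes elsewhere, with a median of 0.07. The domain's mean signal over all 48 genes was 6.50, 6.17, 6.46, 6.55 and 6.71 in knockout and 6.27, 6.24, 6.21, 6.21 and 6.21 in wild type, with knockout replicate 2 below every wild type and the other 4 above. The domain's median was -0.04 between the 2 sets of wild types and 0.19 within the series that begins with 14. Whether the number series had a part in the shift was not tested. The genotype median was 0.05 in acute controls, with 33 of 48 positive, and 0.00 in chronic DSS, with 23 positive. In acute DSS, where 30.9% of all genes passed, the median was -0.06. Rian (-0.60 ± 0.15, adjusted p = 0.00242) and Mir665 (-0.33 ± 0.09, adjusted p = 0.00556) were lower in knockout there. So were Mir679 (-0.34, adjusted p = 0.0235), Mir487b (-0.29, adjusted p = 0.0275), Mir377 (-0.50, adjusted p = 0.0347) and Mir496a (-0.18, adjusted p = 0.0468). No measured member of the domain passed as higher in acute DSS. The 3 microRNA genes of the domain with the largest differences in chronic controls were Mir382 (0.72), Mir369 (0.62) and Mir377 (0.51). Their mature sequences are shown with the seed, bases 2 to 8, in capitals (RefSeq, GRCm38.p6, plus strand).
miR-382-5p: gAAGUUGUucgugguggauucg
miR-382-3p: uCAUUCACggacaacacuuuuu
miR-369-5p: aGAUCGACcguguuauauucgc
miR-369-3p: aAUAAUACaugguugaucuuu
miR-377-5p: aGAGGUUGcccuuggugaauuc
miR-377-3p: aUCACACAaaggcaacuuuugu
They lie at chr12:109733781-109733802, chr12:109733819-109733840, chr12:109743431-109743452, chr12:109743466-109743486, chr12:109740515-109740536 and chr12:109740553-109740574, in that order. The 6 seeds all differ from each other, so the microRNAs share a chromosomal neighbourhood and not a seed.

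**Figure D4:**
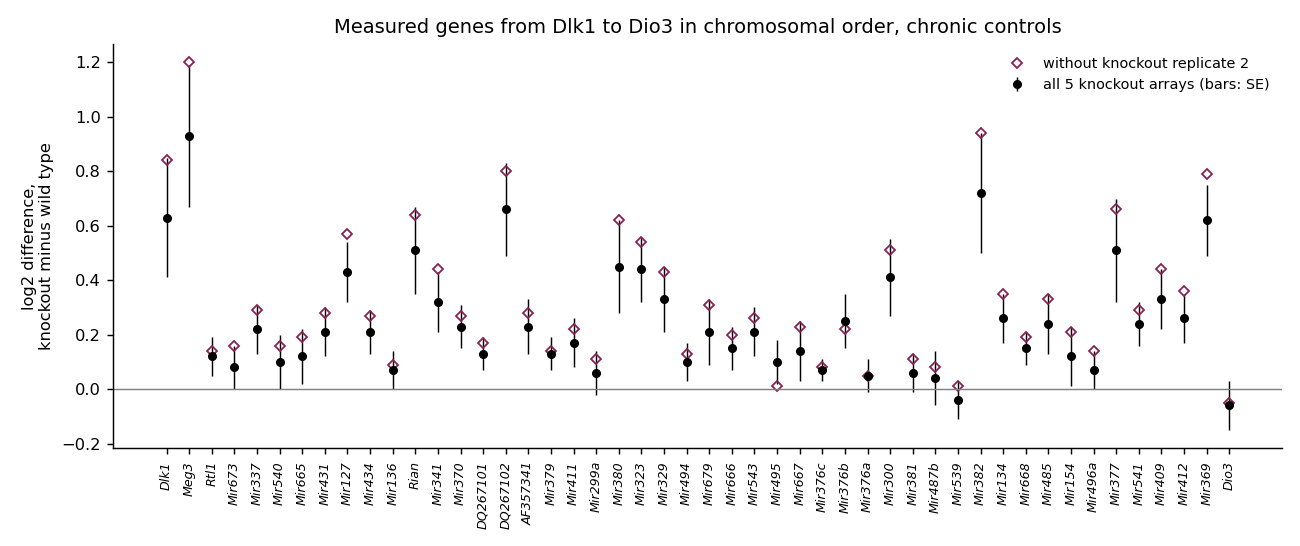
Log2 difference between knockout and wild type (vertical axis) for the 48 measured genes from Dlk1 to Dio3, in chromosomal order along the horizontal axis; filled points are the fit of all 10 arrays with SE, open diamonds the fit without knockout replicate 2. Nearly all points lie above 0, highest in Meg3, Mir382, DQ267102, Dlk1 and Mir369, and 46 of 48 are positive over all arrays.

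Gene lists for cell types, pathways and tissue position, 42 in number with 863 different genes measured, were used to describe the tissue. Only 3 members passed (0.348%), Col8a1, Hoxd12 and Wdfy1, and 80 had an unadjusted p under 0.05 (9.27%), against 9.46% of all genes. Without knockout replicate 2, 25 members of 15 lists passed (2.9%). The list medians ran from -0.34 to 0.37, and 31 of 42 lay within 0.1 of 0.

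The lists with the highest medians were those of plasma cells, tuft cells and goblet cells. Plasma cell and immunoglobulin genes had a median of 0.37, with 12 of 13 differences positive, 2 at an unadjusted p under 0.05 and 0 passing limma's test. The median was 0.19 within the number series that begins with 14 and 0.33 between the 2 sets of wild types. Jchain, which joins secreted IgA, had 10.96 to 11.69 in knockout and 9.35 to 11.31 in wild type (1.04 ± 0.39, adjusted p = 0.355, and 0.32 within that series), and Igha had 9.59 to 12.27 against 8.62 to 10.66 (1.12 ± 0.57, adjusted p = 0.549). Both genes overlapped between the groups. The B cell list had a median of -0.32, and its largest difference, in Ighm (1.15 ± 0.70), pointed the other way from that of the B cell surface protein gene Ms4a1 (-1.09 ± 0.66). Neither passed (adjusted p = 0.644 and 0.641). Fewer cells of a type and less RNA per cell cannot be told apart in such tissue samples.

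Among the 11 measured tuft cell genes, 10 had a positive difference, 7 had an unadjusted p under 0.05 and 0 passed with limma. Their median was 0.35 over all arrays, 0.18 within the number series that begins with 14 and 0.19 between the 2 sets of wild types. Trpm5, the cation channel of taste-like signalling, had 8.60, 7.63, 8.29, 8.29 and 8.49 in knockout and 7.30, 7.05, 6.91, 7.95 and 7.77 in wild type (0.86 ± 0.24, adjusted p = 0.167). Knockout replicate 2 lay inside the wild-type range and the other 4 above it, and without it Trpm5, Sh2d6 and Avil passed (1.02, 0.73 and 0.45, adjusted p = 0.0282, 0.0155 and 0.0233).

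Goblet cell and mucus genes had a median of 0.31, with 16 of 21 positive, 6 at an unadjusted p under 0.05 and 0 passing. Spdef, the transcription factor of goblet cell maturation, had 10.73, 9.64, 10.67, 10.88 and 11.15 in knockout and 9.38 to 9.97 in wild type (0.95 ± 0.31, adjusted p = 0.273). Tpsg1, a tryptase-like serine protease, had 8.61 in knockout replicate 2 and 9.60 to 9.79 in the others, against 8.40 to 8.84 (0.93 ± 0.26, adjusted p = 0.164). With B3gnt6 these were the 3 members that passed without knockout replicate 2. The list's median was 0.08 within the number series that begins with 14, and 0.29 between the wild types, so the number series moved with it and its part in the value was not tested.

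Absorptive and positional genes went in both directions. Scnn1g, a subunit of the epithelial sodium channel, had 7.52, 9.19, 6.97, 6.88 and 6.92 in knockout and 8.66 to 9.83 in wild type (-1.56 ± 0.43, adjusted p = 0.165). It fell by 1.99 (adjusted p = 0.0105) without knockout replicate 2, the 1 array that lay in the wild-type range. Cdx2, the caudal homeobox regulator of intestinal identity, had 10.83, 9.36, 10.87, 10.89 and 11.18 in knockout, 8.44, 8.78 and 8.74 in wild-type replicates 1 to 3 and 9.93 and 10.37 in replicates 4 and 5 (1.38 ± 0.40, adjusted p = 0.184). The 2 sets of wild types differed by 1.49 in Cdx2, and within the number series the genotypes differed by 0.48. Fabp2, a fatty acid carrier of absorptive cells, showed the same order, at 11.07, 9.24, 11.27, 11.26 and 11.74 in knockout, 7.60 to 7.96 in the first 3 wild types and 10.34 and 9.90 in the other 2. The retinol dehydrogenase gene Dhrs9 had 7.78 in knockout replicate 2 and 8.94 to 10.20 in the others, against 7.04 to 8.16 (1.80 ± 0.45, adjusted p = 0.105).

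Smooth muscle contractile genes had a negative difference in 15 of 15 members, with a median of -0.22, 1 at an unadjusted p under 0.05 and 0 passing limma's test. Their median was 0.00 within the number series that begins with 14 and -0.33 between the 2 sets of wild types. Adipocyte genes had a median of -0.34, with 0 of 12 passing or at an unadjusted p under 0.05, and medians of -0.01 and -0.53 in the same comparisons. The part of these tissues in the other results was not tested.

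Most inflammatory lists were near 0. Complement genes were an exception, with a median of -0.15, 12 of 14 differences negative, 0 passing limma's test and, at an unadjusted p under 0.05, 3 lower and 1 higher. The other median differences were 0.05 for 19 neutrophil genes, 0.05 for 31 cytokines and chemokines, -0.05 for 22 macrophage and monocyte genes and 0.03 for 29 epithelial antimicrobial and acute-phase genes, and 0 members of these 4 lists passed with limma. At an unadjusted p under 0.05 there were 2, both in the antimicrobial list. Single knockout mice stood out in some of them. Reg3g, an antibacterial lectin, was at 8.33 in knockout replicate 4 and at 5.30 to 6.16 in the others, against 5.06 to 5.87 in wild type. Ang4, a microbicidal ribonuclease, was at 11.12 in knockout replicate 1 and at 8.65 to 9.11 in the others, against 7.42 to 9.33. Neither passed (adjusted p = 0.85 and 0.448).

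**Figure D5:**
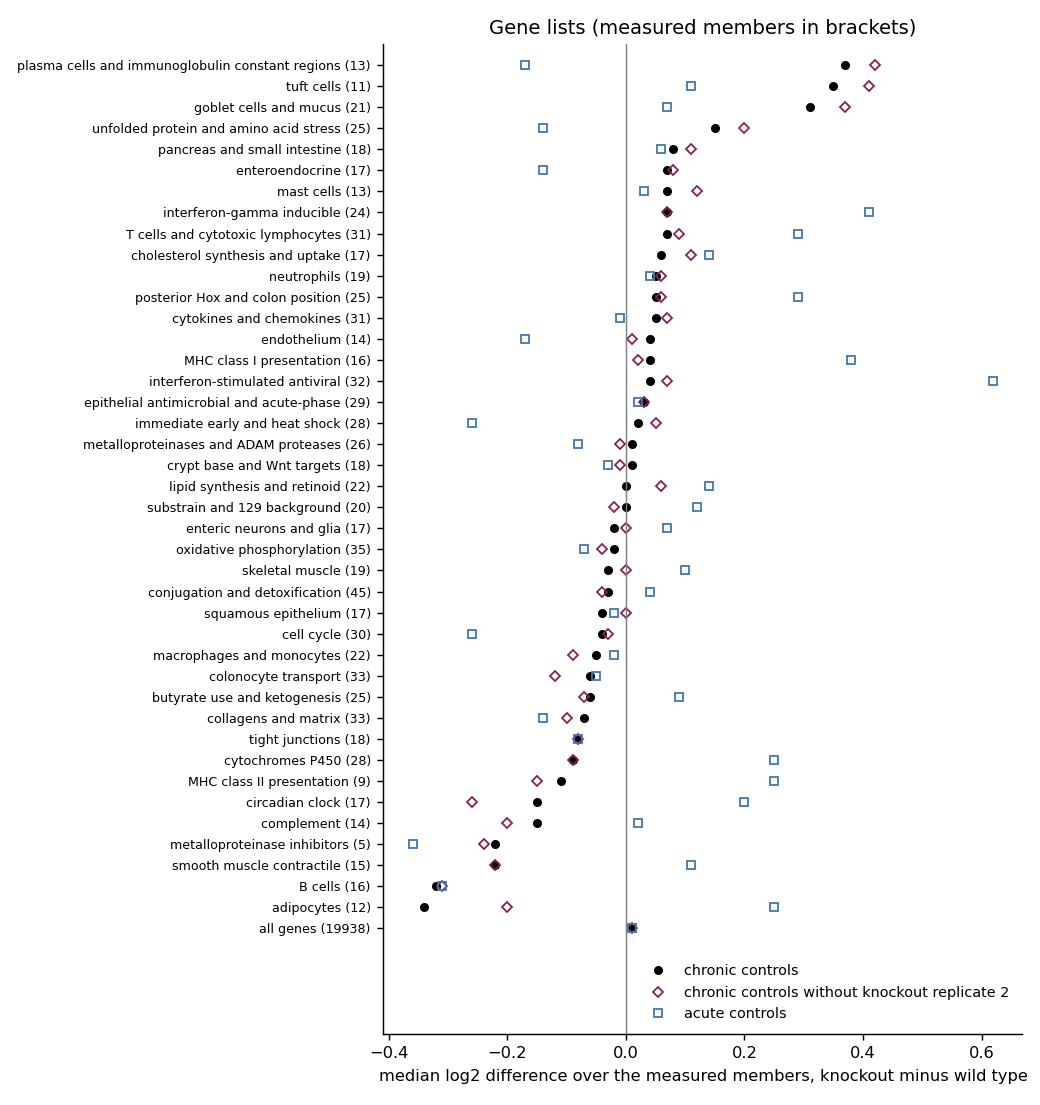
Median log2 difference between knockout and wild type (horizontal axis) over the measured members of 41 of the gene lists and over all genes, in chronic controls with all arrays (n = 5 and 5), in chronic controls without knockout replicate 2 (n = 4 and 5) and in acute controls (n = 3 and 3). In chronic controls most medians lie within 0.1 of 0, and the interferon lists lie at 0.04 and 0.07 there and at 0.62 and 0.41 in acute controls.

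The genotype difference was compared directly between chronic and acute controls, 2 settings without DSS that have their own mice. In acute controls 1 knockout array had Y-linked signal, and in chronic controls no array had it. For 5 of 19938 genes (0.0251%) the difference between the 2 settings passed, and 1512 (7.58%) had an unadjusted p under 0.05. Interferon-stimulated antiviral genes had a median of 0.04 in chronic controls, with 0 of 32 passing limma's test and 0 at an unadjusted p under 0.05, and of 0.62 in acute controls, with 7 passing. No member of that list passed the test of the difference between the settings.

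Nr1d1, the clock repressor REV-ERB alpha, was the 1 member of a list among the 5. It had 12.18, 11.92, 10.49, 9.91 and 10.84 in knockout chronic controls and 12.40, 12.57, 12.42, 12.33 and 11.60 in wild type, and differed by -1.19 ± 0.29 (adjusted p = 0.089). In acute controls it was higher in knockout by 1.44 ± 0.38 (adjusted p = 0.0485), and the difference between the settings was -2.64 (adjusted p = 0.0494). Cry1, a clock repressor that peaks at another time of day, differed by 0.63 ± 0.17 in chronic controls (adjusted p = 0.16) and by -0.74 in acute controls. Knockout replicates 3, 4 and 5 had low Nr1d1 together with high Cry1 (8.96 to 9.11), while replicates 1 and 2 had 8.06 and 8.28 and the wild types 7.82 to 8.57. Clock genes cycle through the day, the labels give no hour of death, and whether that hour differed was not tested.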

How the data were processed

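The authors deposited 1 table of log2 signals, which came from RMA per the submitters' processing notes, a method that corrects background, quantile-normalizes arrays and summarises probes. No source names the log base, which the range of 3.03 to 14.96 fits as 2. Of 35511 clusters, 21789 had 1 gene symbol in the probe annotation, 1621 had several and 12101 were not listed. The cluster with the highest mean was kept for the 999 genes with several, which left 19938 genes.

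All 37 arrays entered 1 limma fit (limma 3.58.1, R 4.3.3) with a mean for each of 8 groups and eBayes at its defaults, with 29 residual degrees of freedom and 3.18 from the prior. The SE of a gene thus rests on its variance over all groups. P values are two-sided and adjusted by Benjamini-Hochberg over all genes, and a gene passed under 0.05. The script was tested on simulated data. Arrays give no count of molecules, so their number limits the precision.

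Each title begins with its own string, read as an animal number, so arrays were taken as separate mice. The string of knockout replicate 4 carries a suffix that the labels do not explain. Replicate numbers follow the order of the samples and pair nothing. Members, lists and rules were chosen with earlier results of these data known.

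Named were the 15 largest differences in each direction among genes that passed, filled to 10 by the smallest unadjusted p; the passed members of described lists (at most 5) or else their 3 largest differences; Timp1 to Timp4 and Reck; the neighbours of Timp1; and genes that passed in all 4 settings. Genes without an established symbol were counted only. Hoxd10, Hoxd11, Hoxd13, the Dlk1 to Dio3 domain, Chchd10, Vpreb3 and members that passed only without knockout replicate 2 were named after their values were seen. Alternatives were other subsets of arrays, number series or sex as a covariate, a trended and robust prior, array weights, a filter on dim genes, cyclic loess, all clusters, and each array left out. The number series that begins with 14 without knockout replicate 2 was added after the data were seen. Promoter and microRNA sequences were matched by symbol to RefSeq tables (GRCm38.p6), in which all 40 microRNA genes of the domain had an entry. The gene table gave names and neighbours only.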

Additional observations from a re-analysis of the deposited data

Results flagged for a closer look

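Values far from the rest of their group were sought in both groups of 5 for the named genes that passed, came next by p or belong to a described list. A value was listed where its gap to the nearest other array, as a share of the group's range, was above 0.71, which chance exceeds in about 1 in 20 groups. Of 18 such values in 140 groups examined, 14 belonged to knockout replicate 2. The shares for that array were 0.782 in Plet1, 0.843 in Fkbp11, 0.824 in Tagap, 0.863 in Ctns, 0.777 in St8sia5, 0.838 in Hacd3 and 0.72 in Fxyd4. Among list members they were 0.725 in Scnn1g, 0.751 in B3gnt6, 0.839 in Tpsg1, 0.807 in Cdx2, 0.925 in Cck, an enteroendocrine hormone, 0.71 in Rgs13, a tuft cell regulator of G protein signalling, and 0.731 in Fabp2.

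The other values were 0.736 in Plcd3 (knockout replicate 4), 0.815 in Ang4 (knockout replicate 1), 0.718 in Reg3g (knockout replicate 4) and 0.75 in Nr1d1 (wild-type replicate 5). Nr1d1 was also listed because its genotype difference in chronic controls minus that in acute controls, -2.64 log2 units, passed limma's test (adjusted p = 0.0494).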

How the results depend on the processing

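No paired analysis was possible because the labels give no replicate numbers shared between the genotypes. The count of 20 genes that passed (14 higher, 6 lower) became 6 (6 and 0) with only the 10 chronic control arrays, in which 1552 genes were lower at an unadjusted p under 0.05 in limma. It became 4 (3 and 1) within the animal numbers that begin with 14, 5 (4 and 1) with the number series as a covariate and 11 (8 and 3) within that series without knockout replicate 2. It became 1348 (700 and 648) with array weights, 36 (23 and 13) with cyclic loess and 32 (23 higher) with all clusters tested. With only the 10 arrays the 6 were Wdfy1, Plcd3, Camk2b, Xpnpep2, Cd177 and Ces1g. With single arrays left out the count ranged from 4 to 280, the higher genes from 4 to 165 and the lower from 0 to 115. The lower count was 0 without knockout replicate 5 and wild-type replicates 1 and 2, where 652, 691 and 499 genes were lower at an unadjusted p under 0.05 in limma. The count in both directions was 280 without knockout replicate 2, 44 and 36 without wild-type replicates 4 and 5, and 4 to 6 without any other. The difference in Timp1 ranged from -0.07 to 0.09, with -0.07, -0.06, 0.00 and -0.02 without knockout replicates 4 and 5 and wild-type replicates 3 and 4. Within the number series, and with it as a covariate, differences that had not passed changed sign in Reck (0.01), Slc9a3 (-0.01), Hoxd11 (0.09) and Dio3 (0.02, also without knockout replicate 2). The other alternatives kept the counts within 1.5 times. The 5 arrays per group, of which 2 wild types share the knockouts' number series, limit what the comparison can resolve.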
